A study of Mus musculus with 2 samples.

Results

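The nephron progenitor transcription factors described here are 9 genes of the kidney: Six2, Cited1, Meox1, Eya1, Osr1, Uncx, Sall1, Pax2 and Wt1. They were taken by symbol from the 32285 genes of the deposited feature list, and all 9 were found once each. The measurements come from 2 single-cell RNA libraries of mouse kidney at P0, the day of birth. Both carry the genotype label Rbpj c/+ ; Foxd1cre/+, so all cells described share 1 conditional allele of Rbpj, which encodes the factor that brings Notch signals to DNA, and a Cre recombinase from the Foxd1 locus, which is active in stromal progenitors. The libraries form 1 group with n = 2. Whether they came from separate animals or pools is not stated, so every SD measures the spread between these libraries only. The SEs and p-values rest on what differs between the libraries within classes once a shift common to each library is removed. None of them can be taken to cover the spread between animals. Cells of another genotype were not analysed here, so the values describe 1 genotype.

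Nephron progenitors form the cap mesenchyme around the tips of the branching ureteric bud. Six2 holds them in a self-renewing state and Cited1 marks the least committed among them. Wnt9b from the bud and a rise in canonical Wnt signalling take part of the cap into Wnt4-expressing aggregates, which become Lhx1-expressing renal vesicles and then podocytes, proximal tubule, loop of Henle and distal tubule. Six2, Meox1, Uncx and Pax2 encode DNA-binding proteins of the homeodomain or paired-domain families, and Osr1, Sall1 and Wt1 encode zinc finger proteins. Eya1 and Cited1 encode coactivators that work through DNA-binding partners (Six2 in the case of Eya1), and so belong to the group only in a wider sense of transcription factor.

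Six2 and Cited1 name the progenitor state, and their upstream sequences are therefore shown. The RefSeq promoter table (build GRCm38.p6) held windows for 5 of the 9 genes. The Six2 window lies at chr17:85688275-85688504 on the minus strand and the Cited1 window at chrX:102252182-102252431, also on the minus strand. Both end just before the gene start of the GENCODE M21 annotation, for which the last 20 of the 250 bases before the RefSeq start of Six2 were left out. Capitals mark the CCAAT box (letters CCAAT) in Six2. In Cited1 they mark CTTTGCT, which matches CTTTGNT (N, any base), a loose form of the TCF/LEF motif through which canonical Wnt signalling acts. They then mark TATAAA, the letters searched as a TATA box, which begin 13 bases before the gene start. No match was tested for function.
Six2: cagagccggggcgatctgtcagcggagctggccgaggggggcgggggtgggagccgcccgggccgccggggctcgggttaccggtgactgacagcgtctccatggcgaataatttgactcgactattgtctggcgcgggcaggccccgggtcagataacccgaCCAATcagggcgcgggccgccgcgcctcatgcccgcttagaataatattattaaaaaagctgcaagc
Cited1: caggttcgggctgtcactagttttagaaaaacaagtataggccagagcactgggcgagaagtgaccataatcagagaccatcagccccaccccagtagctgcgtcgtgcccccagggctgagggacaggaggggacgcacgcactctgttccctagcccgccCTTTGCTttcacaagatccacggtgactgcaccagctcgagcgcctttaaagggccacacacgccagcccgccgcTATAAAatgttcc
Among 32851 RefSeq windows of 250 bases, searched on both strands, 33.8% held the CCAAT letters, 12.4% held TATAAA and 16.0% held CTTTGNT. A homeodomain motif, TAATTA, was in 4.84% of windows. A motif of Six2 and its relatives, TCANGTTTC, was in 0.989%. A motif of WT1 and EGR proteins, GCGTGGG, was in 4.30%. Neither printed sequence held the letters of these other motifs, which says nothing of the factors. The Six2 sequence is 64.8% G or C and the Cited1 sequence 58.0%, against a median of 52.4% over all windows.

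Replicate 1 held 200331687 UMIs (unique molecular identifiers, each a counted RNA molecule) and replicate 2 held 173166168. With at least 3000 UMIs, at least 500 genes, at most 20% mitochondrial UMIs and predicted doublets removed, 5284 and 4064 cells remained, with medians of 14730.5 and 19784 UMIs, and the libraries shared 5 cell barcodes. Cells were clustered and named without the 9 genes, from a marker list for each cell type, giving 15 named classes and 6 clusters left unnamed. The nephron progenitor-like class, named from Crym, Gdnf, Itga8 and like markers, held 431 and 253 cells. The committing progenitor-like class, named from Wnt4, Bmper and like markers, held 354 and 172 cells, and the renal vesicle-like class, named from Lhx1, Jag1 and like markers, held 431 and 198. Levels are given as counts per 1000000 UMIs (CPM), from UMIs summed over the cells of a class in 1 library. They come from the 3' ends of transcripts and are compared between classes for the same gene, not between genes.

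Six2, Cited1, Eya1, Osr1, Uncx and Sall1 had their highest class mean in nephron progenitor-like cells. The 9 genes were chosen as progenitor factors, and the share of all genes highest in that class was not computed. By cluster, Osr1 was higher in stroma-like cells led by Mfap5, Clec3b and Postn, at 115 and 114 CPM against 66.2 and 35.0. Pax2 was highest in committing progenitor-like cells, Wt1 in podocyte-like cells and Meox1 in endothelial-like cells. Wnt4, a secreted signal of committing cells, stood at 67.4 and 19.9 CPM in the progenitor-like class and at 728 and 398 in the committing class. Lhx1, a homeodomain gene of the renal vesicle, stood at 3.85 ± 2.79 CPM in the progenitor-like class, at 13.3 ± 9.51 in the committing class and at 637 ± 177 in the renal vesicle-like class (SD, n = 2). The order of the 3 classes by these markers used for naming is a description.

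**Figure D1:**
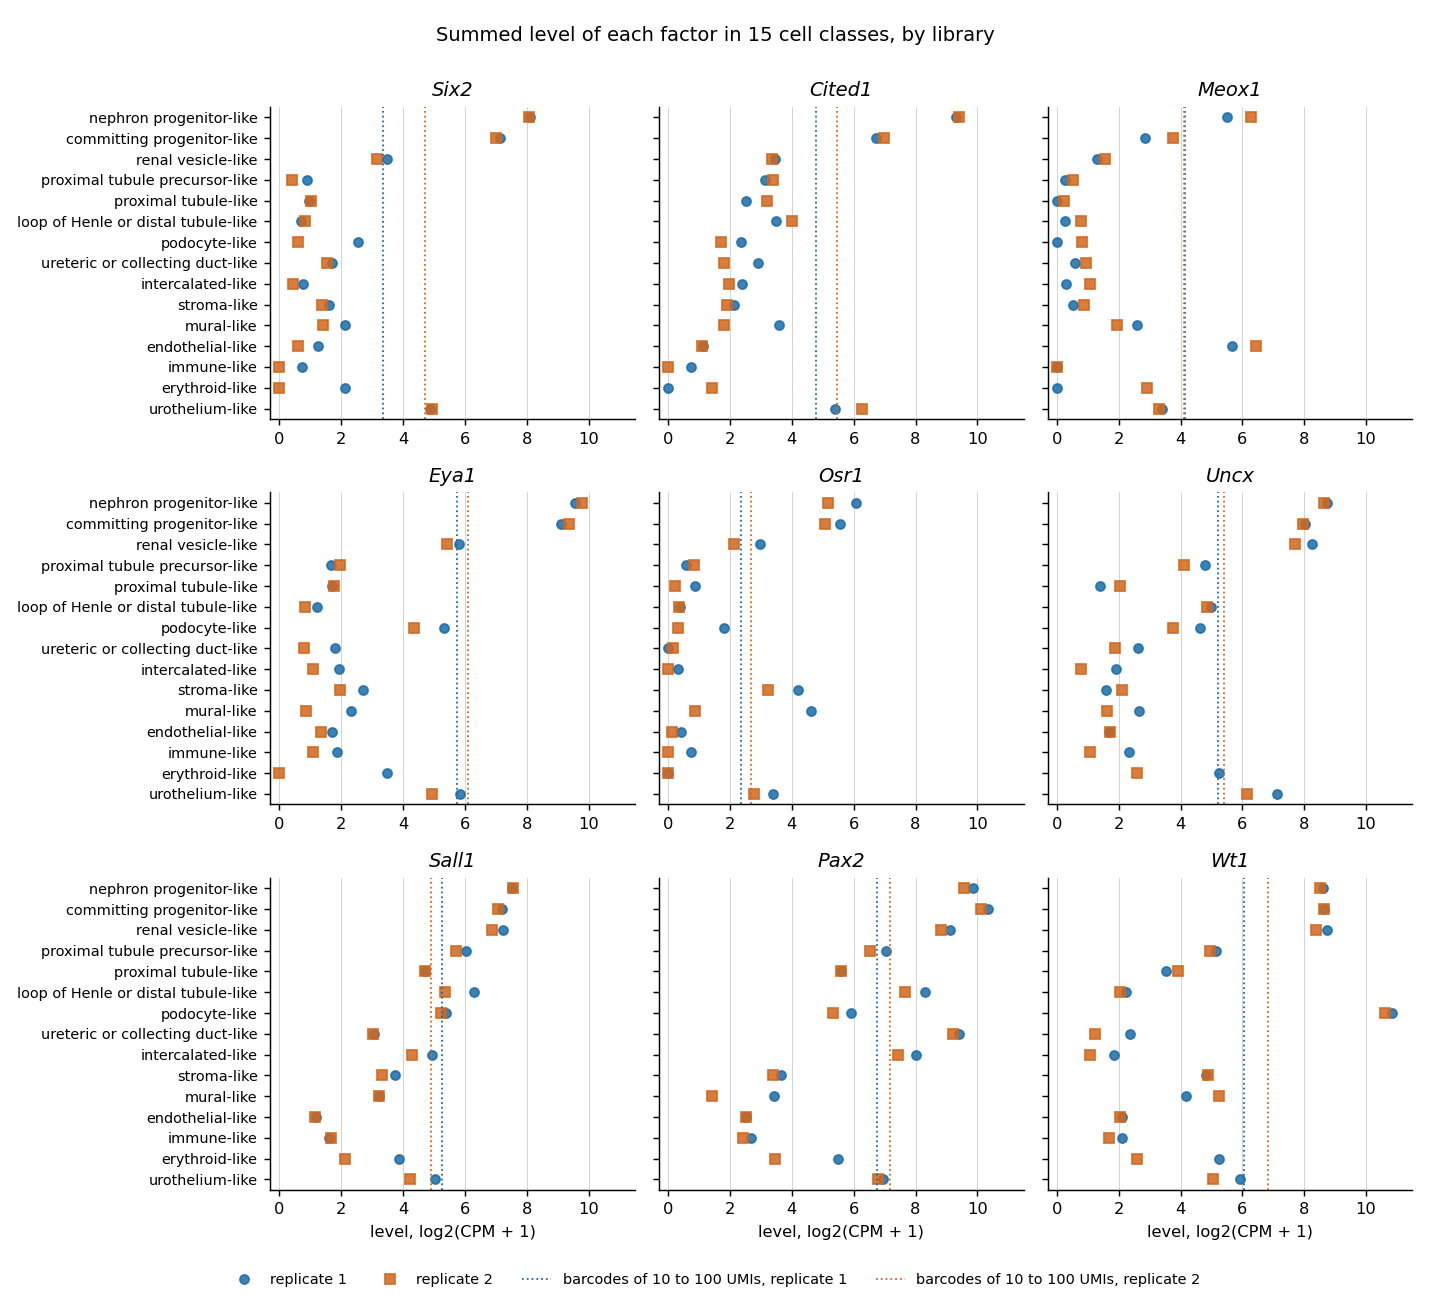
Level of each of the 9 genes, as log2(CPM + 1) on the horizontal axis, in 15 cell classes, with 1 point per library (circles, replicate 1; squares, replicate 2) and dotted lines at the level in barcodes of 10 to 100 UMIs, which hold mostly free RNA. Six2, Cited1 and Eya1 stand far above those lines only in the nephron progenitor-like and committing progenitor-like classes. Meox1 stands above them in the nephron progenitor-like and endothelial-like classes and below them in the committing class, and Wt1 has its highest points in podocyte-like cells.

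Cited1 and Meox1 fell most between progenitor-like and committing progenitor-like cells, and Six2 fell with them. Cited1 stood at 636 CPM in replicate 1 and 679 in replicate 2 in the progenitor-like class, against 106 and 126 in the committing class. The committing class thus held 17.6% of the progenitor level, a log2 fold change of -2.52 ± 0.27 (SE; edgeR quasi-likelihood test, adjusted p = 3.16e-06). Meox1, a homeobox gene first known from the somites, stood at 44.6 and 77.4 CPM against 6.18 and 12.6. The replicates of each class differed from each other, but no committing value came near a progenitor value, and the log2 fold change was -2.74 ± 0.25 (adjusted p = 1.01e-06). Six2 stood at 274 and 266 CPM against 141 and 128, a log2 fold change of -1.03 ± 0.20 (adjusted p = 0.00187). In DESeq2 the Six2 difference was of like size (-0.99) and did not pass (adjusted p = 0.161). Of the 9 genes, these 3 passed the threshold of 0.05, all lower, where 5.83% of the 16223 genes tested passed and 2.65% passed as lower. The median log2 fold change was -0.45 over the 9 genes and -0.03 over all genes tested.

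The other 6 genes did not pass in this step. Uncx, a homeobox gene, stood at 424 and 394 CPM in the progenitor-like class and at 259 and 246 in the committing class (log2 fold change -0.71 ± 0.22, adjusted p = 0.059). Pax2, a paired-domain gene needed for nephron formation, was higher in the committing class in both libraries, at 1308 and 1106 CPM against 920.1 and 749.9 (0.52 ± 0.17, adjusted p = 0.089). Sall1 stood at 184 and 187 against 147 and 135 CPM (-0.42 ± 0.15, adjusted p = 0.129). Eya1, which encodes the partner of Six2 in the progenitor state, stood at 751 and 876 against 546 and 654 CPM (-0.45 ± 0.24, adjusted p = 0.388). Osr1, one of the earliest genes of the kidney mesenchyme, had overlapping groups, with 66.2 and 35.0 against 46.6 and 32.9 CPM (-0.31 ± 0.32, adjusted p = 0.746). Wt1 stood at 387 and 366 against 400.4 and 399 CPM (0.07 ± 0.22, adjusted p = 0.95). When only these 2 classes were fitted, 8 of the 9 genes passed, Wt1 being the exception. After subtraction of the low-UMI barcode profile, none of the 9 passed in edgeR, at log2 fold changes of -2.62 for Cited1, -3.85 for Meox1 and -1.02 for Six2. The share of UMIs to subtract, estimated from haemoglobin, was unlike in the libraries, at 30.9% in replicate 1 and 6.13% in replicate 2. In replicate 1, low-UMI barcodes held 52.1 CPM of Eya1, 107 of Pax2 and 65.3 of Wt1, while endothelial-like cells held 2.24, 4.73 and 3.35. How far the estimated shares hold for these genes was not tested. The classes also rest on genes that vary with these factors, so the test describes the classes as drawn and not the choice of classes.

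**Figure D2:**
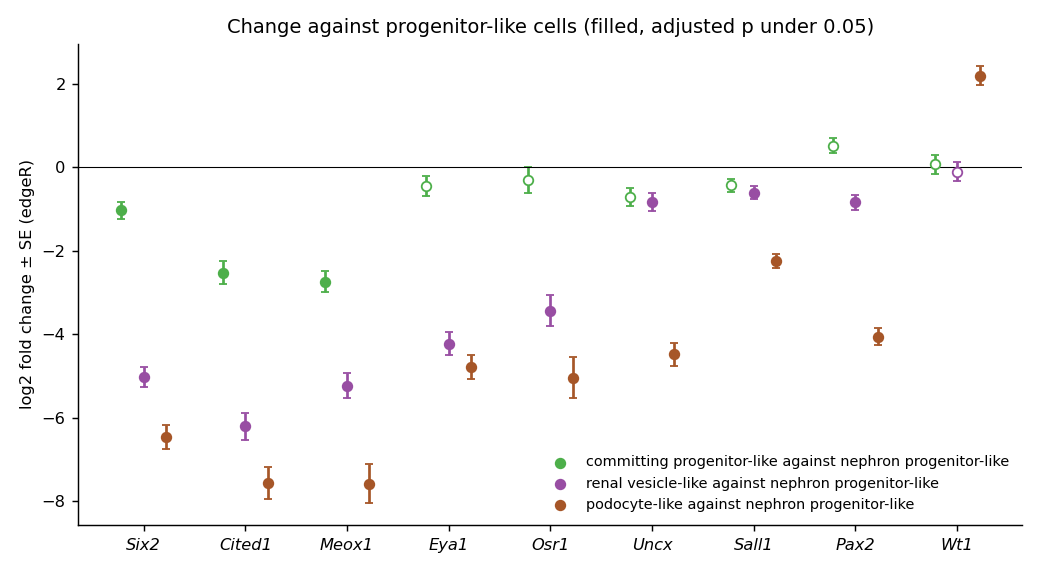
Log2 fold change of each gene against nephron progenitor-like cells with its SE, from edgeR, in committing progenitor-like (green), renal vesicle-like (purple) and podocyte-like cells (brown), where filled points have an adjusted p under 0.05. Six2, Cited1 and Meox1 are already lower in the committing class, Eya1 and Osr1 lie near 0 there and at -4.22 and -3.43 in renal vesicle-like cells, and Wt1 is at 2.20 in podocyte-like cells.

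In renal vesicle-like cells the 9 genes fell into 2 sets. Six2, Cited1, Meox1, Eya1 and Osr1 were at most 10.1% of their progenitor level, while Uncx, Sall1, Pax2 and Wt1 kept at least 60.3%. Six2 stood at 10.2 and 7.95 CPM (-5.02 ± 0.24, adjusted p = 2.25e-12) and Cited1 at 10.0 and 9.26 CPM (-6.20 ± 0.33, adjusted p = 5.36e-12). Barcodes of 10 to 100 UMIs held 9.10 and 25.3 CPM of Six2 and 26.5 and 43.4 of Cited1. The Cited1 level of the class was below these in both libraries, and the Six2 level was slightly above in replicate 1 and below in replicate 2. Eya1 stood at 55.5 and 41.4 CPM, 5.95% of its progenitor level (-4.22 ± 0.28), beside 52.1 and 66.8 CPM in low-UMI barcodes. How much of these levels is free RNA was not tested. Osr1 stood at 6.85 and 3.42 CPM (-3.43 ± 0.37). Eya1 and Osr1 had not passed in the committing class and both passed here. Meox1 was down to 1.46 and 1.91 CPM (-5.23 ± 0.30).

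Of the second set, Sall1 stood at 151 and 116 CPM in renal vesicle-like cells (-0.61 ± 0.15, adjusted p = 0.00434), Uncx at 303 and 205 (-0.83 ± 0.22, adjusted p = 0.00604) and Pax2 at 551 and 457 (-0.84 ± 0.18, adjusted p = 0.000784). All 3 were lower than in progenitor-like cells in both libraries. Wt1 stood at 426 and 336 CPM, on both sides of its progenitor values (-0.10 ± 0.22, adjusted p = 0.781). Thus 8 of 9 genes passed as lower against progenitor-like cells, where 28.8% of all genes passed and 14% passed as lower. Without the library as a block Uncx and Sall1 were lost. Compared with committing cells directly, 6 of 9 passed, all lower, against 19.5% of all genes and 8.41% as lower: Six2 (-3.99 ± 0.23), Eya1 (-3.77 ± 0.27), Cited1 (-3.68 ± 0.30), Osr1 (-3.12 ± 0.37), Meox1 (-2.49 ± 0.34) and Pax2 (-1.36 ± 0.18). Pax2 therefore had its highest point in the committing class and stood lower on either side of it, although its rise into that class did not pass.

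The renal vesicle-like class depended on the choice of cells. With at most 10% mitochondrial UMIs, with no doublets removed, or with the 9 genes let into the clustering, no cluster took that name. With the doublet rate doubled, a cluster low in Wt1 and Eya1 took it (log2 fold changes of -5.94 and -7.68). With at least 6000 UMIs, Wt1 was higher in the class than in progenitor-like cells (0.83) and Pax2 and Uncx no longer passed.

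**Figure D3:**
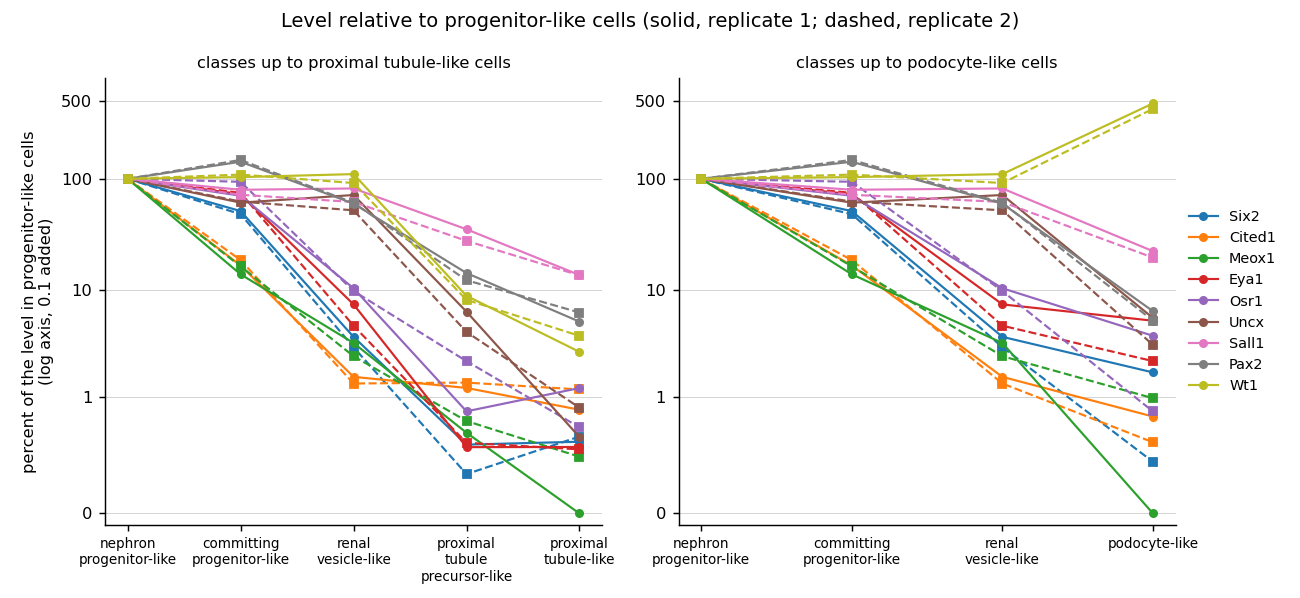
Level as a percentage of that in nephron progenitor-like cells of the same library (log axis, 0.1 added), through the classes up to proximal tubule-like cells (left) and up to podocyte-like cells (right), 1 line per gene and library. Cited1 and Meox1 drop most and Six2 less at the committing class, Eya1 and Osr1 drop at the renal vesicle-like class, and Sall1, Pax2, Uncx and Wt1 stay at or above 50% until the later classes.

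An unnamed cluster of 248 and 184 cells, led by Sim2, Spon1 and Corin, held the second set in another combination. It had 9 of 12 renal vesicle markers raised and was kept unnamed because Irx1, a marker of loop of Henle or distal tubule, was among its leading genes. Pax2 stood at 761 and 621 CPM there, between its renal vesicle-like values of 551 and 457 and its progenitor-like values of 920.1 and 749.9 in each library. Uncx stood at 266 and 278 CPM and Sall1 at 142 and 136, and both lay within the range of the renal vesicle-like libraries. Wt1 was at 4.95 and 8.96 CPM, below the 65.3 and 114 CPM of low-UMI barcodes, and Eya1, Six2, Osr1 and Meox1 were at 5.53, 1.42, 0.20 and 0.52 CPM on average. In a fit with the unnamed clusters as classes, 8 of 9 genes passed as lower than in progenitor-like cells, where 35.2% of all genes passed and 16.2% passed as lower. Pax2 did not pass (-0.37 ± 0.17, adjusted p = 0.0866). Wt1 fell (-5.86 ± 0.30), whereas in the renal vesicle-like class it had not passed; the clusters were not tested against each other. This comparison was added after the data were seen.

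In proximal tubule precursor-like cells (239 and 170) all 9 genes passed as lower, where 51.2% of all genes passed and 24.8% passed as lower. Sall1 kept the largest share, at 64.8 and 51.9 CPM, 31.4% of its progenitor level (-1.61 ± 0.16). This call was lost when no doublets were removed (-0.42) and after subtraction of the low-UMI profile (adjusted p = 0.267). Pax2 was at 131 and 91.8 CPM, Wt1 at 34.2 and 29.8, and Uncx at 26.9 and 16.3. Low-UMI barcodes held 107 and 143 CPM of Pax2, 65.3 and 114 of Wt1, and 36.4 and 41.5 of Uncx. Only Pax2 in replicate 1 was above these. Endothelial-like cells held 4.73 and 4.68 CPM of Pax2, 3.35 and 3.12 of Wt1, and 2.24 and 2.25 of Uncx. Uncx, at 272 ± 8.25 CPM in the Sim2 Spon1 Corin cluster and 21.6 ± 7.48 in proximal tubule precursor-like cells (SD, n = 2), separated these early tubule cells without overlap, although the difference was not tested. In proximal tubule-like cells (209 and 124) all 9 were again lower, against 63.8% of all genes and 32.8% as lower. Sall1 stood at 25.05 and 25.4 CPM and Pax2 at 47.3 and 46.7, while Uncx was at 1.63 and 3.10. Meox1 had 0 UMIs in replicate 1 and 1 in replicate 2 over all those cells.

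The loop of Henle or distal tubule-like class (243 and 310 cells) joined a cluster led by Umod and 1 led by Car15, Pappa2 and Slc12a1. A cluster led by Slc12a3 (95 and 184 cells) was left unnamed, so the class does not cover it. In the class all 9 genes passed as lower, against 55.6% of all genes and 26.6% as lower. Pax2 stood at 317 and 199 CPM, 30.9% of its progenitor level (-1.57 ± 0.18), and Sall1 at 76.5 and 40.1 CPM, 31.4% (-1.57 ± 0.16). Both were above their proximal tubule-like values in each library. Uncx was at 30.8 and 28.2 CPM, near the 36.4 and 41.5 CPM of low-UMI barcodes. Cited1 had a small second level there, 10.2 and 15.05 CPM in the class. The cells of the class led by Car15, Pappa2 and Slc12a1 held 18.8 and 27.7 CPM of it, while those led by Umod and Egfl6 held 2.86 and 2.45. Cited1 in the Sim2 Spon1 Corin cluster was 14.0 and 20.5 CPM. All of these are below the 26.5 and 43.4 CPM of Cited1 in low-UMI barcodes, and the part of free RNA in them was not tested.

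Wt1 rose in podocyte-like cells (372 and 183), where it is known as a master regulator of podocyte identity, and the other 8 genes fell. Wt1 stood at 1836 and 1554 CPM there against 387 and 366 in progenitor-like cells, a log2 fold change of 2.20 ± 0.23 (adjusted p = 5.97e-08). After subtraction of the low-UMI profile the size was alike (2.29) but the call was lost (adjusted p = 0.305). All 9 genes passed, 1 higher and 8 lower, where 47.2% of all genes passed, 22.7% as higher and 24.5% as lower. The antisense gene Wt1os, which was among the genes used to cluster, stood at 859 ± 207 CPM in podocyte-like and 295 ± 43.4 in progenitor-like cells. Sall1 kept 20.9% of its progenitor level in podocyte-like cells, at 41.1 and 36.6 CPM, close to the 37.2 and 28.9 CPM of low-UMI barcodes.

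Pax2 was also high in ureteric or collecting duct-like cells, at 682 and 586 CPM, below both progenitor values (-0.45 ± 0.17, adjusted p = 0.0411). The ureteric epithelium uses Pax2 independently of the cap. Its level was 657 ± 17.6 CPM in the cluster led by Aqp2 and 648 ± 115 in the one led by Rprm with Ret, the receptor of the ureteric tip. The class also held a cluster led by Calb1, Pgam2 and S100g (38 and 58 cells), and whether that cluster belongs to the nephron was not tested. The other 8 genes were at most 3.9% of their progenitor level in this class, and all 9 passed as lower, against 43.4% of all genes and 20.6% as lower. The Pax2 call held in 7 of 12 alternatives, with adjusted p up to 0.914 and a log2 fold change of -0.05 when no doublets were removed, and is uncertain. Pax2 in intercalated-like cells was 259 and 170.2 CPM.

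Meox1 in endothelial-like cells did not differ from its level in progenitor-like cells beyond the error, at 49.5 and 86.4 CPM against 44.6 and 77.4 (0.20 ± 0.22, adjusted p = 0.471). The other 8 genes passed as lower there, against 51.7% of all genes and 27.1% as lower, and none exceeded 0.859% of its progenitor level. Within the endothelium the clusters were not tested against each other. The cluster led by Plvap held 70.5 and 102 CPM, the one led by Pcdh17 and Cyp26b1 54.5 and 99.8, and the one led by Ehd3, a gene of glomerular capillaries, 51.3 and 74.1. The arterial cluster led by Sox17 and Gja4 held 3.43 and 22.1 CPM, the lowest value of the 4 in each library, while the values of the other clusters overlapped. An unnamed cluster of 33 and 29 shallow cells led by Rgcc, Fabp4 and Tcf15 held 109 and 118 CPM, from 17 and 16 UMIs.

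Osr1 in stroma-like cells stood at 17.5 and 8.37 CPM, lower than in progenitor-like cells (-2.00 ± 0.34, adjusted p = 6.94e-05). The difference was -1.06 with at most 10% mitochondrial UMIs and lost its call after subtraction of the low-UMI profile (adjusted p = 0.277). The stroma-like Osr1 level came mostly from 1 cluster. In the 74 and 33 cells led by Mfap5, Clec3b and Postn, genes of fibrous connective tissue, Osr1 stood at 115 and 114 CPM, above its progenitor-like level in both libraries. In the muscle cluster led by Tnnt2, Actg2 and Myh11 it stood at 109 CPM in replicate 1 from 71 UMIs in 50 cells, and the 3 cells of replicate 2 held 2 UMIs. All 9 genes passed as lower in the stroma-like class, against 43.5% of all genes and 23% as lower. An unnamed cluster of 209 and 214 cells led by Gm32647 and Gdnf held Sall1 at 59.1 and 55.8 CPM and Wt1 at 73.6 and 81.4. Low-UMI barcodes held Sall1 at 37.2 and 28.9 CPM and Wt1 at 65.3 and 114. The Wt1 level of the cluster was thus above theirs in replicate 1 and below it in replicate 2. The stroma-like class as a whole held 12.5 and 8.94 CPM of Sall1 and 27.1 and 28.4 of Wt1.

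Urothelium-like cells, a small class of 32 and 29 cells, held Uncx at 139 and 70.3 CPM from 44 and 24 UMIs, and Cited1 at 41.0 and 76.1 CPM from 13 and 26. The Uncx values lay above the 36.4 and 41.5 CPM of low-UMI barcodes in both libraries. So did Cited1, Six2 (28.4 and 29.3 CPM) and Osr1 against their own low-UMI values, Pax2 and Eya1 in replicate 1 only, and Wt1, Sall1 and Meox1 in neither. Wnt4 stood at 192 and 190 CPM. The class had the lowest median depth of all named classes, 5109 and 6538 UMIs. Whether RNA of other cells adds to these levels was not tested. Immune-like cells (129 and 56) held no Meox1 UMI in either library, and 1 and 0 UMIs each of Six2, Cited1 and Osr1.

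Single cells were compared after each was thinned to 3000 UMIs, because median depth differed, at 17446 and 24551 UMIs in progenitor-like, 22228 and 33490 in renal vesicle-like and 10905 and 13318 in endothelial-like cells. Six2 was detected in 49.7% of progenitor-like cells in replicate 1 and 51.8% in replicate 2, in 30.2% and 23.8% of committing cells, and in 2.09% and 1.01% of renal vesicle-like cells. In endothelial-like cells, which should lack it, the share was 0.603% and 0.175%. Cited1 went from 77.5% and 80.6% through 19.2% and 20.3% to 3.02% and 3.03%, with 0.754% and 0.349% in endothelial-like cells. Eya1 remained in 64.1% and 74.4% of committing cells, after 78.0% and 84.6% of progenitor-like cells, and was found in 9.05% and 8.08% of renal vesicle-like cells. Without thinning, Six2 was detected in 96.3% and 97.2% of progenitor-like cells and Cited1 in 96.1% and 98.8%. Low-level genes were seen in few thinned cells: Osr1 in 14.4% and 7.11% of progenitor-like cells and Meox1 in 11.8% and 22.5%. Meox1 was found in 0 of 431 and 0 of 198 thinned renal vesicle-like cells, which allows shares of up to 0.696% and 1.52% of cells with a UMI at that depth. At full depth 2.09% and 3.03% of these cells held a Meox1 UMI. Intervals and limits cover counting error only.

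**Figure D4:**
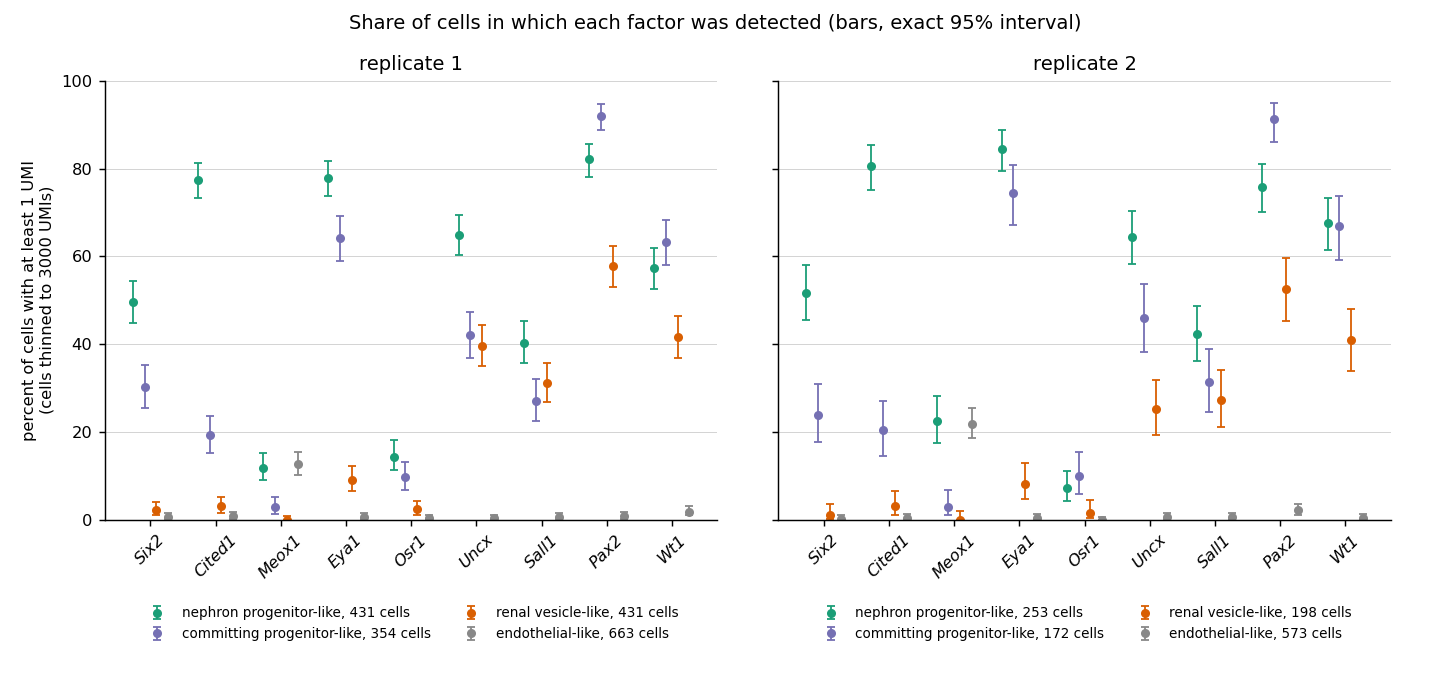
Percentage of cells with at least 1 UMI of each gene after thinning to 3000 UMIs, in nephron progenitor-like, committing progenitor-like, renal vesicle-like and endothelial-like cells, with exact 95% Clopper-Pearson intervals, replicate 1 on the left and replicate 2 on the right. Six2 and Cited1 drop at each step in both libraries, Pax2 is detected most often in committing cells, and in endothelial-like cells Meox1 alone is far from 0.

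Co-detection gives the share of cells in which both genes of a pair were seen. These shares follow in part from how often each gene is detected alone. They were not set against that expectation, so a link between genes within cells was not tested. Six2 and Cited1 were both detected in 37.1% (exact interval 32.5% to 41.9%) of thinned progenitor-like cells in replicate 1 and 41.1% (35.0% to 47.4%) in replicate 2. The pair was found in 6.78% and 6.40% of committing cells and in 0 of 431 and 1 of 198 renal vesicle-like cells. Without thinning, 92.6% and 96.4% of progenitor-like cells held both, as did 41.2% and 45.9% of committing cells. At full depth, Six2 without Cited1 was seen in 37.9% and 40.1% of committing cells but in 3.71% and 0.791% of progenitor-like cells. At least 5 of the 9 genes were detected in 57.8% and 64.4% of thinned progenitor-like cells, 18.1% and 27.3% of committing cells and 1.62% and 0.505% of renal vesicle-like cells. The median number of the 9 genes per thinned cell was 5 and 5, then 3.5 and 4, then 2 and 2, with 0 and 0 in endothelial-like cells. Pax2 together with Wt1 was found in 59.9% and 61.0% of committing cells and in 47.3% and 51.8% of progenitor-like cells.

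The steps were also drawn from thinned UMIs of 4 genes instead of clusters. Cells of the 3 classes with thinned UMIs of both Six2 and Cited1, and none of Wnt4 or Lhx1, formed 1 gate (162 and 110 cells). Cells with Wnt4 and no Lhx1 formed another (305 and 101), and cells with Lhx1 the last (311 and 98). The other 438 and 314 cells fell in none. The Wnt4 gate can thus hold renal vesicle-like cells whose Lhx1 was lost in thinning, and their share was not measured. Six2 and Cited1 are fixed by the gate, and the other 7 genes are the measurement. At the Wnt4 gate Meox1 stood at 6.77 and 9.58 CPM against 47.4 and 81.0 (edgeR log2 fold change -2.93 ± 0.28, adjusted p = 6.46e-07). Eya1 stood at 488 and 429 against 768 and 880.3 CPM (-0.88 ± 0.23, adjusted p = 0.0191) and Uncx at 239 and 229.6 against 439.7 and 386 (-0.82 ± 0.21, adjusted p = 0.022). Thus 3 of the 7 passed, against 6.05% of all genes and 2.3% as lower, where 1 of these 7, Meox1, passed between the clusters. At the Lhx1 gate Eya1 (-3.46 ± 0.25), Osr1 (-3.25 ± 0.38), Meox1 (-3.83 ± 0.30) and Pax2 (-0.50 ± 0.18) were lower, against 25.4% of all genes and 10.5% as lower, while Uncx, Sall1 and Wt1 did not pass (-0.27 ± 0.21, -0.27 ± 0.16 and -0.10 ± 0.22). Uncx was at 377 and 309 CPM and Sall1 at 176 and 139 in that gate.

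Among progenitor-like cells, the 97 and 49 in which no Cited1 UMI was left by thinning had less Six2 and more Eya1 in each library. They held Six2 at 233 and 253 CPM against 286 and 268 in cells with Cited1, and Eya1 at 785 and 1002 against 741 and 848. Wnt4 stood at 98.4 and 21.2 CPM in these cells and at 58.6 and 19.6 in those with Cited1. No test was made of this split, which rests on a measured value.

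Osr1 and Meox1 differed between the libraries, in opposite directions. Osr1 was lower in replicate 2 in progenitor-like (35.0 against 66.2 CPM), committing and renal vesicle-like cells, with log2 ratios of -0.92, -0.50 and -1.001. The Mfap5 Clec3b Postn cluster showed no such gap. Meox1 was higher in replicate 2, with log2 ratios of 0.79 in progenitor-like, 1.03 in committing and 0.80 in endothelial-like cells. The ratio of Meox1 was thus alike in cells of the cap and of the vessels. For Six2, Cited1, Sall1, Pax2, Wt1, Eya1 and Uncx the libraries lay within 0.30 of each other (log2) in progenitor-like cells, in either direction. With 2 libraries of 1 label this was not tested.

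Paralogues of the 9 genes, listed as 14 genes of which 12 could be tested, moved at the renal vesicle-like step. Against progenitor-like cells 4 of the 12 passed as higher and 5 as lower, where 28.8% of all genes passed and 14% as lower, with a median log2 fold change of -0.12 against -0.04 over all genes tested. Osr2 stood at 0.831 and 0.691 CPM in progenitor-like cells, 6.36 and 4.58 in committing cells and 255 and 286 in renal vesicle-like cells (8.32 ± 0.44), in the same classes through which Osr1 fell from 50.6 to 5.13 CPM. Pax8, a close relative of Pax2, stood at 73.6 and 63.4 CPM in progenitor-like and 553 and 455 in renal vesicle-like cells (2.76 ± 0.21), where Pax2 was lower than in the committing class. Meox2 fell with Meox1, from 41.8 and 40.8 to 6.91 and 4.53 CPM (-2.97 ± 0.22). Osr2 was the only paralogue to pass in the committing class (2.81 ± 0.55, adjusted p = 0.00227). In the loop of Henle or distal tubule-like class Cited4 stood at 47.8 and 60.1 CPM against 0.755 and 0.592 in progenitor-like cells (6.39 ± 0.40), and there 4 paralogues passed as higher and 5 as lower, where 55.6% of all genes passed and 26.6% as lower.

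Of 22 other genes known for keeping nephron progenitors, among them Hox genes, FGF ligands and their targets, 2 passed as higher and 5 as lower in the committing class (median log2 fold change -0.08), where 5.83% of all genes passed and 2.65% as lower. Bmp7, a growth factor of the cap, stood at 58.5 and 54.8 CPM in progenitor-like and 21.0 and 22.8 in committing cells (-1.39 ± 0.20). Etv4, a target of FGF and GDNF signalling, fell from 107 and 115 to 44.6 and 56.0 CPM (-1.16 ± 0.19). Spry1, which encodes an inhibitor of receptor tyrosine kinases, rose from 27.5 and 22.3 to 64.6 and 57.4 CPM (1.28 ± 0.18). In renal vesicle-like cells 2 passed as higher and 13 as lower (median -0.84), against 28.8% and 14% of all genes, the largest changes being Fgf20 (-3.84 ± 0.50), Etv4 (-2.05 ± 0.20) and Hoxa11 (-1.80 ± 0.16). Fgf20 stood at 12.5 and 6.32 CPM in progenitor-like and 0.465 and 1.01 in renal vesicle-like cells. In podocyte-like cells 2 passed as higher and 15 as lower, where 47.2% of all genes passed. In proximal tubule-like cells these counts were 1 and 17, where 63.8% of all genes passed.

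Genes whose levels over the 15 classes ran most like each member were found by Pearson correlation of log2(CPM + 1) among 16533 genes, as a description over classes that share libraries. For Six2 these were Saa1 (0.973), Gm12829 (0.970) and Gm29418 (0.959), and for Eya1 they were Gm12829 (0.964), Six2 (0.9504) and Col2a1 (0.938). Cited1 ran with Gm14066 (0.960), Fgf20 (0.959) and Rsph1 (0.919), and Uncx with 4930500L23Rik (0.972), Minar2 (0.947) and Rspo1 (0.923). Osr1 ran with Meox2 (0.961), P4ha3 (0.945) and Glrb (0.944). Pax2 ran with Gm35610 (0.941), Cldn9 (0.921) and Fbxo16 (0.911), and Wt1 with Wt1os (0.988), Lmx1b (0.924) and Eya4 (0.914). For Sall1 the closest genes were Cecr2 (0.884), 2310010J17Rik (0.881) and Gm13404 (0.862), and for Meox1 they were Gm11770 (0.935), E130006D01Rik (0.934) and Mapk12 (0.885). In the GENCODE M21 annotation of GRCm38, Meox1, Osr1 and Pax2 overlap genes on the opposite strand (Gm11551, 1700022H16Rik, and Gm20395 with 1700039E22Rik). Whether the counting used strand is not given in the sources used here, so reads of these pairs may not be fully separated.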

How the data were processed

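The authors deposited raw UMI counts per gene and barcode for all barcodes. The file headers name Cell Ranger 4, the submitters' processing notes Cell Ranger 6.0.1 and mm10; per the labels' protocols, 3' ends of single-cell cDNA were sequenced. Of 32285 identifiers, 32235 were found in GENCODE M21. The members, gene lists and comparisons were chosen with earlier results of these data known. Doublets were the top Scrublet scores, 0.8% per 1000 cells (245 and 142 removed). Clusters (scanpy 1.11.5; 2000 variable genes, 30 components, 15 neighbours, Leiden resolution 1) were built without the 9 members and the 2 gene lists. A cluster was named from the type with the highest mean fold of its markers, with at least 3 raised 2-fold. Sums of counts for each class in each library were fitted together in edgeR 4.0.16 (30 sums, 14 residual degrees of freedom): class means, library as a block, TMM scaling, two-sided quasi-likelihood tests, Benjamini-Hochberg adjustment over the 16223 genes not used for clustering or naming. The low-count filter kept 18028 genes and all 9 members. Simulated data gave 90% of 2-fold and 100% of 4-fold changes in the committing comparison, with 9 false among 199 calls (17940 genes). The simulated counts had 1 dispersion for all genes, no gene shifts between libraries, and changes only in genes above a set level. These rates therefore need not hold for noisier or lower genes. Named are all 9 members, the 3 list genes with the largest called change in a comparison, and the 3 genes most like each member; further list genes and clusters were chosen after their values were seen. Alternatives are DESeq2 1.42.0, other filters, cells, doublet rates, clusterings and gates, subtraction of the profile of barcodes with 10 to 100 UMIs, and each library left out.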

Additional observations from a re-analysis of the deposited data

How the results depend on the processing

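The counts of members passing held within 1.5 times the main count under every alternative run for podocyte-like, proximal tubule-like, loop of Henle or distal tubule-like, ureteric or collecting duct-like, stroma-like, proximal tubule precursor-like and endothelial-like cells against progenitor-like cells. For committing against progenitor-like cells the count of 3 became 5 without the filter on low counts, 8 with only the 2 classes, 6 with at most 10% mitochondrial UMIs, 6 with the doublet rate doubled, 0 after subtraction of the low-UMI profile (edgeR; Meox1 alone had an unadjusted p under 0.05), 5 at Leiden resolution 2 and 7 with the members and lists let into clustering. For renal vesicle-like cells the count of 8 became 4 after that subtraction and 5 at resolution 2, and against committing cells the count of 6 became 2 after the subtraction. That subtraction also ended the calls of Wt1 and Sall1 in podocyte-like and proximal tubule precursor-like cells, of Sall1 and Pax2 in the loop class, of Osr1 and Wt1 in stroma-like cells and of Pax2 in ureteric or collecting duct-like cells. The subtraction took unlike shares of UMIs from the libraries, estimated at 30.9% and 6.13%, and the cause of the lost calls was not tested. At the Wnt4 step 3 of 7 members passed between gates against 1 between clusters. Co-detection of Six2 and Cited1 in progenitor-like cells, 39.1% on average, became 94.5% without thinning and 42.7% with at least 6000 UMIs.

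Directions that turned all concerned renal vesicle-like cells. Wt1 against progenitor-like cells was 0.83 with at least 6000 UMIs, and ran from -0.20 to 0.017 when 1 replicate was left out. Against committing cells Wt1 was 0.76 and Uncx 0.40 with at least 6000 UMIs, Uncx was 0.25 and Sall1 0.15 at resolution 2, and Uncx ran from -0.30 to 0.11 when 1 replicate was left out. No renal vesicle-like value could be had with at most 10% mitochondrial UMIs, without doublet removal or with members let into clustering, nor a proximal tubule precursor-like value with at most 10% mitochondrial UMIs. The replicate numbers are names in order of deposit, and the library was already the replicate block. Without the replicate block 3 members passed in the committing class and 6 in the renal vesicle-like class, where Uncx (-0.80) and Sall1 (-0.59) were lost, as was Pax2 in ureteric or collecting duct-like cells (-0.46). DESeq2 called Cited1, Meox1 and Pax2, but not Six2, in the committing class.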
